A study of Drosophila melanogaster with 5 samples.

Results

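The nuclei of principal cells (PCs), the large secretory cells that make up most of the epithelium of the fly Malpighian tubule (MT), were compared between PCts > Pvr act and PCts > w1118. A nucleus was taken as a PC nucleus when the deposited cell type name contained "principal cells", the types named after Pvr act included. This rule gave 5890 of the 9367 nuclei of PCts > Pvr act and 1649 of the 3015 nuclei of PCts > w1118, so 7539 PC nuclei of 12382 in both libraries and of 21371 in the whole series. Both genotypes carried CG31272-GAL4 with tub-GAL80TS, a driver of PCs that is held off at low temperature, and both were female flies moved to 29 °C as adults. PCts > Pvr act also carried UAS-Pvr act, a transgene for an activated form of the receptor Pvr, and PCts > w1118 carried no transgene in its place. The length of the stay at 29 °C is uncertain, since the protocols state 8 days and the treatment label states 5 days. Each genotype was 1 library made from 90 pairs of MTs, so animals were pooled, and the genotype cannot be told apart from the library. The control library EGT > w1118 (esg-GAL4 and tub-GAL80TS driving UAS-GFP, 1411 PC nuclei of 3380) gave the only available measure of how far libraries of this kind differ, and that measure includes the difference in driver.

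Pvr is the single receptor of flies for the PDGF- and VEGF-related ligands Pvf1, Pvf2 and Pvf3. It is a receptor tyrosine kinase that can signal through Ras and ERK, and through Crk, Mbc and Rac to JNK. PCs move potassium and water into the tubule lumen with an apical V-ATPase, handle urate and organic solutes, and are sealed to their neighbours by smooth septate junctions. The tubule is divided along its length into initial, transitional and main segments, a lower tubule and a ureter, whose PCs differ in the transporters they express.

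The level of a gene is given as the mean over nuclei of its UMIs (unique molecules) per 10,000 UMIs of the nucleus. A log2 fold change is the log2 ratio of both means after adding 1 to each, which understates the change of genes at low levels. A gene was counted as higher or lower when its log2 fold change was at least 1 in either direction and its level at least 0.5 in 1 of the libraries. With 1 library per genotype there was no test across genotypes, no p-value is given, and 95% intervals cover counting error only. The PC nuclei held 30538169 UMIs in PCts > Pvr act and 13377005 in PCts > w1118. Depth per nucleus differed: the median PC nucleus had 2817 UMIs and 1136 genes in PCts > Pvr act, against 8353 UMIs and 2116 genes in PCts > w1118. Of the cell barcodes, 5 occurred in both libraries.

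PC nuclei made up 62.9% of the nuclei of PCts > Pvr act (exact binomial 95% interval 61.9 to 63.9) and 54.7% of those of PCts > w1118 (52.9 to 56.5). The order turned round among nuclei with at least 1000 UMIs, where the shares were 70.2% in PCts > Pvr act and 78.6% in PCts > w1118. The PC types were almost entirely different between the libraries, as the plot of PC types by library shows. In PCts > Pvr act, 3395 nuclei were named lower segment PCs (Pvr-act), 1681 lower tubule PCs (Pvr-act), 725 lower segment PCs 2 (Pvr-act), 86 lower ureter PCs and 3 upper ureter PCs. None of the 9367 nuclei was assigned to main segment PCs, to lower tubule PCs without the suffix or to initial and transitional PCs. The exact 95% interval allows a share of up to 0.039% for each. In PCts > w1118, 747 PC nuclei were main segment PCs, 298 lower tubule PCs, 222 upper ureter PCs, 221 initial and transitional PCs, 89 principal cells-like, 39 lower ureter PCs, 30 main segment PCs 2 and 3 lower tubule PCs (Pvr-act). Lower ureter PCs were therefore the only PC type with at least 20 nuclei in both libraries, and for the rest of the epithelium genotype, library and named type cannot be told apart. The segment names of the Pvr-act types come from the deposited annotation, and whether those nuclei lay in that segment was not tested.

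**Figure D1:**
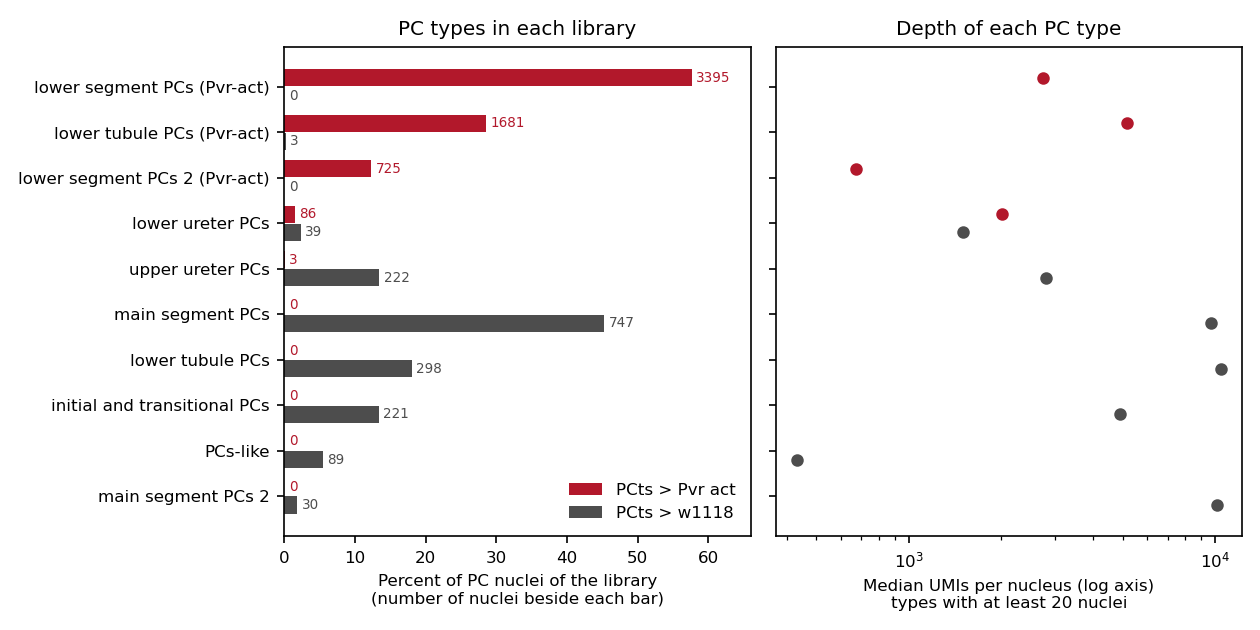
PC types of PCts > Pvr act (red) and PCts > w1118 (grey): left, each type as a percent of the PC nuclei of its library with the number of nuclei beside the bar; right, the median UMIs per nucleus on a log axis for types with at least 20 nuclei. The 3 types named after Pvr act held 3395, 1681 and 725 nuclei in PCts > Pvr act and 0, 3 and 0 in PCts > w1118, whereas lower ureter PCs held 86 and 39.

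The PC label was checked with 8 marker genes. The homeobox gene cut (ct), which marks tubule PCs, was at 78.6 in PC nuclei of PCts > Pvr act and 67.7 in those of PCts > w1118, a log2 fold change of 0.21. By type, ct was at 111 in lower segment PCs (Pvr-act), 40.4 in lower tubule PCs (Pvr-act), 51.9 in lower ureter PCs and 17.2 in lower segment PCs 2 (Pvr-act) of PCts > Pvr act, against 25.5 in tracheal cells of the same library. In PCts > w1118 it lay between 8.05 in lower ureter PCs and 116 in initial and transitional PCs, with 8.69 in tracheal cells. The level of ct in the largest types of PCts > Pvr act was thus within the range of the PC types of PCts > w1118, while that of lower segment PCs 2 (Pvr-act) was below that of tracheal cells. Of the other 7 markers, 6 were lower past the fold, where 11.8% of all genes were. Without lower segment PCs 2 (Pvr-act) 5 were lower, where 12.3% of all genes were. Of the 8 markers, 5 reached the level needed for a call in PCts > w1118 alone. They include 4 of the 6 lower markers, and those 4 could only be lower. Among the lower markers, the urate oxidase gene Uro was at 0.209 in PCts > Pvr act and 8.36 in PCts > w1118. The phosphate transporter gene NaPi-T, also lower, was at 0.00584 and 2.74.

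The leading genes of the 725 nuclei named lower segment PCs 2 (Pvr-act) went against that name. The 10 genes that stood highest there over every other PC type were Ppn, Hml, Col4a1, Ten-m, CG5080, SPARC, zfh1, vkg, LpR2 and pnr. Hml (hemolectin) is a classic hemocyte gene, Col4a1 and vkg encode the collagen IV chains, and Ppn encodes the matrix protein papilin. Hml was at 33.9 in these nuclei, against 0.938 in lower segment PCs (Pvr-act) and 0.525 in lower tubule PCs (Pvr-act). The hemocyte list (Hml, NimC1, srp, He, eater and PPO1) summed to 45.3 there, between 0.881 and 3.19 in the other PC types of the library, 1.75 in its tracheal cells, and at most 0.495 in any PC type of PCts > w1118. None of the 6 genes was at 0 in PC nuclei of PCts > Pvr act, although He had 26 UMIs and PPO1 77. These 725 nuclei were also shallow, with a median of 674 UMIs against 2748 in lower segment PCs (Pvr-act), and 12.3% of the PC nuclei of PCts > Pvr act fell in this type. They are called here by their deposited name, the counts over all genes are given with and without them, and a list count is given without them where it changes.

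The target of the transgene was higher in PCts > Pvr act. Pvr (FBgn0032006, chromosome arm 2L, 8220980 to 8239878 on the minus strand in BDGP6) was at 31.1 UMIs per 10,000 in PC nuclei of PCts > Pvr act, 6.66 in those of PCts > w1118 and 8.31 in those of EGT > w1118, a log2 fold change of 2.07 against PCts > w1118. The log2 ratio of pooled UMIs, with no pseudocount, was 2.02 (1.99 to 2.05). UMIs of the transgene and of the gene at its own locus cannot be told apart in these counts. It was at 29.2, 27.5, 37.4 and 15.3 in lower segment PCs (Pvr-act), lower segment PCs 2 (Pvr-act), lower tubule PCs (Pvr-act) and lower ureter PCs of PCts > Pvr act, and between 0.728 and 9.09 in the PC types of PCts > w1118, so these levels did not overlap. Pvr was also at 18.9 in tracheal cells and 9.28 in visceral muscle of PCts > Pvr act, against 0.871 and 0 in PCts > w1118. All 3 ligand genes were higher as well, where 11.2% of all genes were. All 3 passed the level filter in PCts > Pvr act alone, so they could only be higher. Pvf1 was at 2.68 in PCts > Pvr act and 0.39 in PCts > w1118 (log2 fold change 1.40), Pvf2 at 2.58 and 0.332 (1.42), and Pvf3 at 4.66 and 0.132 (2.32). CG31272, the gene whose GAL4 insertion drives the transgene, was at 4.47 in PCts > Pvr act and 10.7 in PCts > w1118 (-1.09), and its change fell short of the fold with pooled UMIs (-0.87) and with nuclei thinned to 1000 UMIs (-0.99). The gal4 feature had 0 UMIs in PC nuclei of both libraries and EGFP likewise, so neither tells whether the driver was active.

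Across the genome, 3100 genes reached a level of 0.5 in PC nuclei of either library. Of these, 347 (11.2%) were higher and 365 (11.8%) lower in PCts > Pvr act, around a median log2 fold change of -0.01. The control libraries differed far less: among 2647 genes, 14 (0.529%) were higher and 18 (0.68%) lower in PC nuclei of EGT > w1118 than in those of PCts > w1118. The median absolute log2 fold change was 0.49 between PCts > Pvr act and PCts > w1118, against 0.14 between the control libraries, and 1336 of the 3100 genes passed the 95th percentile of the control libraries (0.58). Of the genes called against PCts > w1118, 315 of the 347 higher and 301 of the 365 lower were called in the same direction against EGT > w1118. Without lower segment PCs 2 (Pvr-act), 347 of 3065 genes (11.3%) were higher and 376 (12.3%) lower, with 323 and 357 of the original calls kept. Of the 347 higher genes, 155 reached the level filter in PCts > Pvr act alone, and of the 365 lower genes 190 reached it in PCts > w1118 alone. A gene that passed in this way could differ in 1 direction only, so the list counts that follow are descriptions and support no direction.

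**Figure D2:**
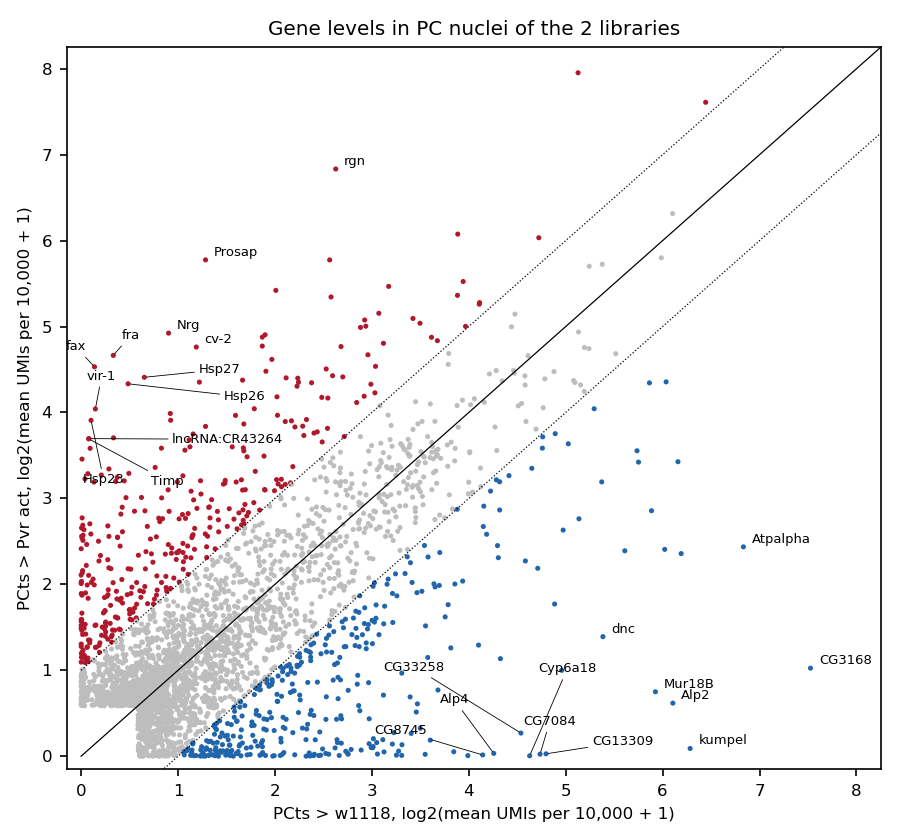
Levels of the 3100 genes in PC nuclei, PCts > Pvr act on the vertical axis and PCts > w1118 on the horizontal axis, both as log2(mean UMIs per 10,000 + 1). Red points are the 347 genes higher and blue points the 365 genes lower in PCts > Pvr act by a log2 fold change of at least 1 (dotted lines), and the 24 named genes are labelled.

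The 12 genes with the lowest log2 fold changes were CG3168, kumpel, Alp2, Mur18B, CG13309, CG7084, Cyp6a18, Atpalpha, CG33258, Alp4, CG8745 and dnc. CG3168 was at 1.03 in PCts > Pvr act, against 183 in PCts > w1118 and 154 in EGT > w1118, a log2 fold change of -6.50. Its pooled log2 ratio was -6.42 (-6.45 to -6.39). kumpel, of the monocarboxylate transporter family, was at 0.0643 in PCts > Pvr act, against 76.9 in PCts > w1118 and 79.1 in EGT > w1118 (-6.19). Atpalpha, the catalytic subunit of the sodium pump on the basolateral membrane, was at 4.41 in PCts > Pvr act, against 113 in PCts > w1118 and 77.1 in EGT > w1118 (-4.40). The naming rule required the same direction against EGT > w1118, so that direction was fixed in advance. In size, these 12 genes differed from either control library by far more than the control libraries differed. They were picked for their size against PCts > w1118, so this too is a description and no support. Both alkaline phosphatase genes on the list followed. Alp2 was at 0.535 in PCts > Pvr act and 67.9 in PCts > w1118 (-5.49), and Alp4 at 0.0228 and 18.1 (-4.22). dnc, the cAMP phosphodiesterase gene dunce, was at 1.62 in PCts > Pvr act and 40.8 in PCts > w1118 (-3.99). Cyp6a18, a cytochrome P450, had 10 UMIs in 5890 PC nuclei of PCts > Pvr act against 38546 in 1649 PC nuclei of PCts > w1118, a pooled log2 ratio of -13.10 (-14.16 to -12.22). The mucin-related Mur18B was at 0.681 and 59.8 (-5.18), and the others had log2 fold changes between -4.77 (CG13309) and -4.13 (CG8745).

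The 12 genes with the highest log2 fold changes were Prosap, fax, fra, rgn, Nrg, vir-1, Hsp26, Hsp23, Hsp27, lncRNA:CR43264, Timp and cv-2. Prosap, the fly Shank scaffold protein, was at 53.8 in PCts > Pvr act, 1.43 in PCts > w1118 and 1.48 in EGT > w1118, a log2 fold change of 4.49 and a pooled log2 ratio of 5.62 (5.55 to 5.70). Several others act in axon growth and cell adhesion. fax (failed axon connections) was at 22.1 in PCts > Pvr act and 0.1 in PCts > w1118 (4.39), fra, the Netrin receptor Frazzled, at 24.4 and 0.259 (4.33), and Nrg, the L1-type adhesion molecule Neuroglian, at 29.3 and 0.869 (4.02). rgn, named regeneration, was at 113 in PCts > Pvr act and 5.18 in PCts > w1118 (4.21). vir-1, a gene known to respond to JAK-STAT signaling, was at 15.5 and 0.107 (3.89), Timp, the inhibitor of matrix metalloproteinases, at 11.9 and 0.0552 (3.62), and cv-2, a BMP-binding protein, at 26.1 and 1.28 (3.57). The small heat shock genes Hsp26, Hsp23 and Hsp27 lie within one stretch of chromosome arm 3L (BDGP6, 9376418 to 9385694) and differed between the control libraries too. Hsp27 was at 20.2 in PCts > Pvr act, 0.571 in PCts > w1118 and 10.3 in EGT > w1118, so its log2 fold change was 3.76 against PCts > w1118 and 0.91, short of the fold, against EGT > w1118. Hsp26 was at 19.2, 0.399 and 5.46 in the same libraries, and Hsp23 at 14, 0.0734 and 0.906.

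The 24 genes were then followed through the PC types, 4 of PCts > Pvr act and 7 of PCts > w1118 with at least 20 nuclei. For 11 of the 12 higher genes, every type of PCts > Pvr act lay above every type of PCts > w1118. fax, for example, was between 8.53 and 28 in the types of PCts > Pvr act, against 0 to 0.578 in those of PCts > w1118. The exception was cv-2, at 3.89 in lower segment PCs 2 (Pvr-act) of PCts > Pvr act and 4.44 in upper ureter PCs of PCts > w1118. For 11 of the 12 lower genes, every type of PCts > Pvr act lay below every type of PCts > w1118, the exception being CG33258. Atpalpha was between 3.72 and 5.5 in the types of PCts > Pvr act, against 14 to 154 in those of PCts > w1118. Over all 3100 genes, 373 (12%) were higher and 324 (10.5%) lower in this way, and of the called genes 201 of 347 and 188 of 365. The 24 genes were picked for the largest log2 fold changes in these same nuclei, so their separation by type follows largely from that choice. Types of 1 library share that library and are not replicates.

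**Figure D3:**
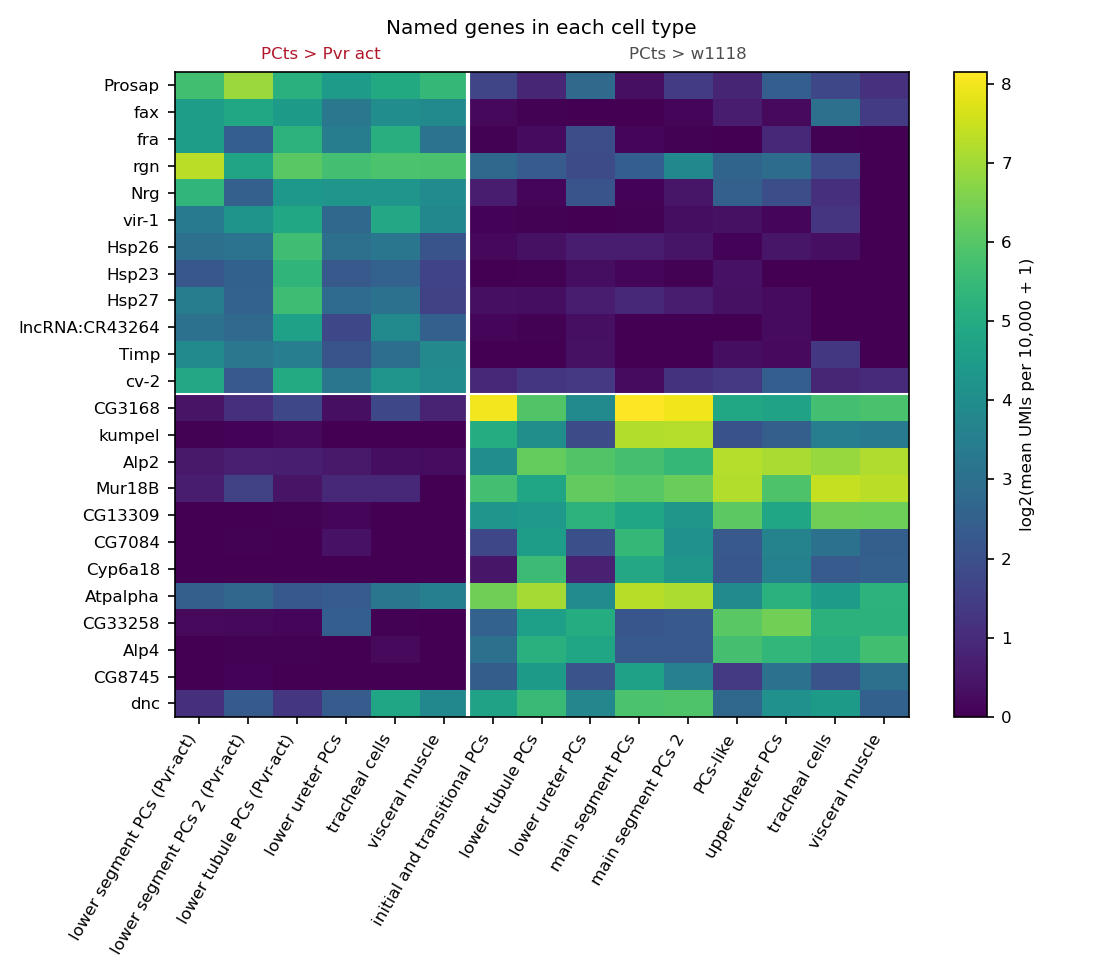
Levels of the 24 named genes as log2(mean UMIs per 10,000 + 1) in each type with at least 20 nuclei, PCts > Pvr act left of the white line and PCts > w1118 right of it, with tracheal cells and visceral muscle of each library at the right of its block. Among the PC types, the 12 upper genes were brighter throughout the left block and the 12 lower genes throughout the right block, apart from cv-2 and CG33258.

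The types of PCts > Pvr act also differed among themselves, which is given as a description since the types were clustered on the same genes. Heat shock genes were concentrated in lower tubule PCs (Pvr-act), where Hsp23 was at 39.6, against 3.59 in lower segment PCs (Pvr-act), and Hsp68 at 14.4 against 0.951. rgn was at 156 in lower segment PCs (Pvr-act) and 66.3 in lower tubule PCs (Pvr-act), and trol, the basement membrane proteoglycan perlecan, at 29.1 and 10.6. Prosap had its highest level, 119, in lower segment PCs 2 (Pvr-act), and 50.1 in lower segment PCs (Pvr-act). The heat shock list summed to 286 in lower tubule PCs (Pvr-act), 76.4 in lower segment PCs (Pvr-act), 70.5 in lower ureter PCs and 58.9 in lower segment PCs 2 (Pvr-act), against 21.7 to 41.3 in the types of PCts > w1118. In tracheal cells it summed to 72.8 in PCts > Pvr act and 30.2 in PCts > w1118.

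Because the libraries held different types, the pair named alike was compared separately: lower tubule PCs (Pvr-act) of PCts > Pvr act against lower tubule PCs of PCts > w1118. This pairing was chosen after seeing the data. Of 3219 genes, 404 (12.6%) were higher and 417 (13%) lower, and 270 of the 347 higher and 281 of the 365 lower genes of the whole comparison were called in the same direction. Some of the lower genes were not. The homeobox gene homothorax (hth) was at 4.13 in all PC nuclei of PCts > Pvr act and 72.1 in those of PCts > w1118 (-3.83), but at 5.94 in lower tubule PCs (Pvr-act) and 2.96 in lower tubule PCs (0.81). In PCts > w1118 it was at 375 in initial and transitional PCs and 43.1 in main segment PCs, types that PCts > Pvr act lacked. The potassium channel gene Irk1 (-2.86 in all PC nuclei, 0.31 in the lower tubule pair) and CG4928 (-3.62 and 0.31) had the same pattern, with levels in PCts > w1118 of 34.5 and 68.7 in initial and transitional PCs but 0.628 and 4.4 in lower tubule PCs. The log2 fold changes of these genes thus changed sign within the lower tubule pair but stayed short of the fold there. In contrast, CG3168 (-4.17), Alp2 (-5.52) and Atpalpha (-4.81) stayed far lower.

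Genes of ion and water transport leaned lower. Of 32 V-ATPase genes in the files, the 14 that passed the level filter gave 8 lower and 0 higher past the fold, with a median log2 fold change of -1.12 against -0.01 over all genes, in a comparison where 11.8% of genes were lower. Without lower segment PCs 2 (Pvr-act) 9 were lower, and in the lower tubule pair 6, where 13% of genes were lower. Vha26, a stalk subunit, was at 3.02 in PCts > Pvr act and 11.5 in PCts > w1118 (-1.64), Vha68-2, the A subunit of the catalytic head, at 1.92 and 6.58 (-1.38), and Vha55, its B subunit, at 2.19 and 6.29 (-1.19). Vha16-1, of the proton ring, was at 24.7 and 44.8 (-0.83), short of the fold. The same list summed to 49.0 in tracheal cells of PCts > Pvr act and 192 in those of PCts > w1118, beside 46.5 and 107 in PC nuclei. Of 21 genes of potassium, sodium and chloride transport, 13 passed the filter, of which 5 were lower and 1 higher (median -0.80). The lower ones were Atpalpha, its beta subunit nrv1 (-1.13) and the inward rectifier channels Irk1, Irk2 (-1.26) and Irk3 (-3.08). Ncc69, a sodium-potassium-chloride cotransporter, was the higher one, at 1.87 in PCts > Pvr act and 0.104 in PCts > w1118.

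Among anion, phosphate and carbonate genes, 8 of 10 passed the filter, 6 of them in PCts > w1118 alone, with 3 lower and 1 higher, where 11.8% of all genes were lower and 11.2% higher. The bicarbonate exchanger gene Ndae1 was at 0.252 in PCts > Pvr act and 10.3 in PCts > w1118 (-3.17) and NaPi-T had a log2 fold change of -1.89, whereas the anion exchanger gene Ae2 was at 3.54 and 0.237 (1.87). The carbonic anhydrase gene CAH1 (-3.14) was at 64.8 in initial and transitional PCs of PCts > w1118 and at most 4.02 in its other PC types, and differed by -0.53 in the lower tubule pair. Of 7 aquaporin genes 3 passed, each in PCts > w1118 alone, and Eglp2 (0.0102 in PCts > Pvr act, 1.42 in PCts > w1118, -1.26) and Eglp4 (0.00679, 1.19, -1.12) were lower past the fold. In the lower tubule pair these aquaporin genes differed by only -0.39 and -0.23, where they were at 0.356 and 0.193 in PCts > w1118. Of the 9 transporter genes that the study had picked on these libraries, 8 passed the filter and all 8 were lower (median -1.79), which is no independent evidence, and 3 of them were lower in the lower tubule pair. Of the receptors for diuretic hormones, Dh31-R (2.08 in PCts > Pvr act, 12.5 in PCts > w1118, -2.13) and Dh44-R2 (0.368, 3.24, -1.63) were lower, while the insulin receptor gene InR was higher (64.5, 25.4, 1.31, and 0.32 in the lower tubule pair). Of 7 zinc transporter genes past the filter, Zip71B (-1.33) and Zip48C (-1.08) were lower and none was higher, where 11.8% of all genes were lower, and both passed in PCts > w1118 alone.

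In the list of uric acid and purine genes, 2 were lower and 1 higher past the fold, where 11.8% of all genes were lower and 11.2% higher. Uro was at 0.209 in PCts > Pvr act, 8.36 in PCts > w1118 and 9.05 in EGT > w1118 (-2.95), and CG30016, a gene of urate breakdown downstream of Uro, at 0.0815, 7.07 and 4.82 (-2.90). Both remained lower in the lower tubule pair (-1.51 and -2.24). AOX1, an aldehyde oxidase gene, was at 2.84 in PCts > Pvr act and 1.77 in PCts > w1118 (0.47), short of the fold in all PC nuclei and past it in the lower tubule pair (1.33). Adgf-A, a secreted adenosine deaminase, was at 2.57 and 0.0511 (1.77). Only 5 of the 16 genes of this list in the files passed the filter. Uro and CG30016 passed it in PCts > w1118 alone and Adgf-A in PCts > Pvr act alone, so the filter fixed the direction of each. Uro was at 15.3 and CG30016 at 8.42 in tracheal cells of PCts > w1118, above their PC levels, and at 0.226 and 0.0218 in tracheal cells of PCts > Pvr act.

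Detoxification genes changed in part. Of 17 cytochrome P450 genes past the filter (84 in the files), 4 were lower (Cyp6a18, Cyp6g1, Cyp12a4 and Cyp4p3) and none higher, with a median of -0.53, where 11.8% of all genes were lower, and 9 of the 17 passed in PCts > w1118 alone. In the lower tubule pair 5 P450 genes were lower and 3 higher. Cyp6g1, known for insecticide metabolism, was at 0.0156 in PCts > Pvr act and 3.22 in PCts > w1118 (-2.05). Of 19 glutathione and UDP transferase genes, 5 were lower, led by Ugt35B1 (-1.38), and none higher (median -0.28), with 6 of the 19 above 0, where 11.8% of all genes were lower. Of the 19, 9 passed the filter in PCts > w1118 alone and 5 in PCts > Pvr act alone. The transferase list held 0.299% of the UMIs of PC nuclei in PCts > Pvr act and 0.295% in PCts > w1118. In the lower tubule pair 3 transferase genes were lower and 1 higher. Mitochondrial genes lay mostly below 0 without passing the fold. Of 64 genes of oxidative phosphorylation past the filter, 15 were lower past the fold, where 11.8% of all genes were, none had a log2 fold change above 0, and the median was -0.68. Without lower segment PCs 2 (Pvr-act) 18 were lower, and in the lower tubule pair 3 were, with a median of -0.45. Of the 64, 26 passed the filter in PCts > w1118 alone. The proton ring subunit ATPsynC was at 2.92 in PCts > Pvr act and 11.6 in PCts > w1118 (-1.68). In tracheal cells this list summed to 59.6 in PCts > Pvr act and 387 in PCts > w1118, beside 50.2 and 136 in PC nuclei. None of 82 ribosomal protein genes passed the fold (median -0.09), and in the lower tubule pair their median was 0.15.

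Smooth septate junction genes were higher. All 4 smooth septate junction genes passed the fold, where 11.2% of all genes did. mesh was at 8.25 in PCts > Pvr act, 1.8 in PCts > w1118 and 1.77 in EGT > w1118 (1.72), Tsp2A at 7.58, 2.24 and 2.1 (1.41), hoka at 5.01, 1.43 and 1.46 (1.31), and Ssk at 13.1, 4.82 and 5.32 (1.27). Within the types, however, their levels overlapped: Ssk was between 11 and 18.1 in those of PCts > Pvr act, while lower ureter PCs of PCts > w1118 were at 14.6 and its main segment PCs at 2.4. Ureter PCs of the control thus already had these genes near the level of the Pvr-act types. In the lower tubule pair all 4 were higher (median 1.44). Of 9 pleated and shared septate junction genes past the filter, 3 were higher (Nrg, cora and l(2)gl), all 9 had a log2 fold change above 0, and cora, the band 4.1 protein Coracle, was at 6.02 and 1.06 (1.77). Of 5 adherens junction genes, baz (1.77) and shg, E-cadherin (1.11), were higher. The gap junction genes Inx2 (0.63) and Inx7 (0.54) stayed short of the fold.

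Cytoskeleton and integrin adhesion genes past the filter were higher. Of 17 such genes in the files, 15 passed the filter and all 15 were higher past the fold (median 1.70), where 11.2% of all genes were. In the lower tubule pair 13 were higher, where 12.6% of all genes were. Of the 15, 1 passed the filter in PCts > Pvr act alone. mys, the beta integrin, was at 28.4 in PCts > Pvr act, 2.65 in PCts > w1118 and 3.75 in EGT > w1118 (3.01). Act42A, a cytoplasmic actin, was at 8.17 in PCts > Pvr act and 0.28 in PCts > w1118 (2.84), cher, the actin crosslinker filamin, at 11.1 and 1.18 (2.48), Vinc, vinculin, at 7.06 and 0.54 (2.39), and the small GTPase gene Rho1 at 24.5 and 6.78 (1.71). The list summed to between 161 and 253 in the types of PCts > Pvr act and between 50.5 and 82.4 in those of PCts > w1118, and to 143 in tracheal cells of PCts > Pvr act and 60.3 in those of PCts > w1118.

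Most matrix genes were higher too, and for some of them 1 type carried much of the difference. Of 11 genes, 8 were higher past the fold in all PC nuclei (median 1.58), where 11.2% of all genes were. Without lower segment PCs 2 (Pvr-act) 5 were higher (median 0.99), where 11.3% of all genes were. Of the 11, 9 passed the filter in PCts > Pvr act alone, among them 7 of the 8 higher genes. Col4a1 was at 36.8 in lower segment PCs 2 (Pvr-act), 0.987 in lower segment PCs (Pvr-act), 1.12 in tracheal cells of PCts > Pvr act and 0.00269 in PC nuclei of PCts > w1118, and its log2 fold change was 2.65 with and 0.90 without those nuclei. Ppn (3.45 and 1.49) and vkg (1.46 and 0.37) moved in the same way, alongside the hemocyte genes Hml (2.55 and 0.86) and NimC1 (0.82 and 0.22). NimC1 had 576 UMIs in PC nuclei of PCts > Pvr act and 0 in those of PCts > w1118, at least 84.1-fold higher against the limit of 3 counts in a library that a count of 0 allows. The list summed to 164 in lower segment PCs 2 (Pvr-act), 31.3 to 73.8 in the other types of PCts > Pvr act and 6.67 to 13.8 in those of PCts > w1118. Timp (3.67), Mmp2, a membrane-bound matrix metalloproteinase (3.16), and trol (2.33) were higher past the fold without those nuclei too. Mmp2 was at 10.4 in lower segment PCs (Pvr-act), 4.73 in lower tubule PCs (Pvr-act) and between 0 and 0.363 in the PC types of PCts > w1118. The part of other cells in the nuclei named lower segment PCs 2 (Pvr-act) was not tested.

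Most genes of the signaling arms below Pvr stayed short of the fold. In the arm to JNK, 11 of 14 genes passed the filter and 2 were higher, the AP-1 gene kay (17.1 in PCts > Pvr act, 4.59 in PCts > w1118, 1.69) and the kinase gene msn (12.3, 3.92, 1.43). Jra, the AP-1 partner of kay, was at 1.51 and 0.279 (0.97) and the phosphatase gene puc at 24.7 and 12.9 (0.89), short of the fold. Without lower segment PCs 2 (Pvr-act) both passed it (Jra 1.00, puc 1.05), so that 4 genes of this arm were higher. bsk, the JNK itself, was at 0.326 and 0.535 (-0.21). Of 10 AP-1 and JNK output genes past the filter, 7 were higher and none lower (median 1.29), or 8 without lower segment PCs 2 (Pvr-act), where 11.2% of all genes were higher, and 5 of the 7 passed the filter in PCts > Pvr act alone. They were cher, Tsp42Ea (2.19), the cell death genes rpr (3.09, 0.00278, 2.03) and hid (3.52, 0.426, 1.66), Ets21C (1.44), the cytokine gene upd3 (1.14) and Atf3 (1.06). Of 8 ERK arm genes past the filter, 2 were higher. One is sty (Sprouty), an inhibitor that ERK signaling induces, at 9.27 in PCts > Pvr act, 0.698 in PCts > w1118 and 0.763 in EGT > w1118 (2.60), with its highest level in lower segment PCs 2 (Pvr-act) (26.9) and 7.15 in lower segment PCs (Pvr-act). The other is Ets21C. The ERK gene rl was at 10.8 and 18.5 (-0.73, and -1.42 in the lower tubule pair), and the ERK-regulated factors pnt (0.62) and aop (0.65) stayed short of the fold. The ERK feedback gene aos, named after its values were seen, was at 9.15 in PCts > Pvr act and 0.22 in PCts > w1118 (3.06).

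Some genes of cytokine signaling, immunity and stress were higher. In the JAK-STAT list, Socs36E, a feedback inhibitor, was at 28.9 in PCts > Pvr act, 2.73 in PCts > w1118 and 2.46 in EGT > w1118 (3.01), and the receptor gene dome at 2.3 in PCts > Pvr act and 0.465 in PCts > w1118 (1.17), whereas Stat92E was at 3.31 and 5.32 (-0.55). The immunity list joined all genes named PGRP with IMD pathway and antimicrobial peptide genes, and 11 of its 30 genes in the files passed the filter. Of these, PGRP-SA, AttD, AttB, DptA, DptB and pirk were higher, where 11.2% of all genes were. Each of these 6 passed the filter in PCts > Pvr act alone, so they could only be higher. They include AttD (5, 0.0718, 2.49) and the recognition protein gene PGRP-SA (7.05, 0.378, 2.55). PGRP-SA is on the list by its name, and its level is not a measure of the IMD pathway. DptB had 3672 UMIs in PC nuclei of PCts > Pvr act and 0 in those of PCts > w1118, at least 536-fold higher against the same limit, and DptA had 6215 and 1 (pooled log2 ratio 11.41, 8.93 to 16.71). The peptide genes DptA and DptB, and AttA and AttB, are similar in sequence, so how UMIs divide between copies is uncertain. DptA was at 3.46 in tracheal cells and 3.03 in PC nuclei of PCts > Pvr act. Of 15 heat shock genes, 10 were higher and none lower (median 1.37), with 6 of the 10 past the filter in PCts > Pvr act alone, while the same list had a median of 0.40 in EGT > w1118 against PCts > w1118. Hsp68 was at 4.8, 0.00702 and 0.159 in PCts > Pvr act, PCts > w1118 and EGT > w1118, and the near-identical Hsp70 copies cannot be separated with certainty.

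The Hippo outputs list also holds members of the pathway itself, such as wts. In it, Diap1, an inhibitor of apoptosis, was at 15.5 in PCts > Pvr act and 2.45 in PCts > w1118 (2.26). The other 5 genes past the filter stayed short of the fold, where 11.2% of all genes were higher, and the kinase gene wts had a log2 fold change of -0.14. ImpL2, which binds insulin-like peptides outside the cell, was at 6.45 and 0.341 (2.47), and Thor, a translation inhibitor that Foxo induces, at 15.9 and 7.48 (0.99, and 1.09 without lower segment PCs 2 (Pvr-act)), while foxo itself was at 1.99 and 3.97 (-0.73). In the Notch list only N passed the fold (1.01), with its highest level in lower segment PCs 2 (Pvr-act) (5.26), and without those nuclei it did not (0.67). All 4 Notch genes past the filter passed it in PCts > Pvr act alone, so none could be lower. Of 17 cell cycle genes only E2f1 (-0.21) and stg (0.71) reached the level filter. Among the identity factors, Hnf4, a nuclear receptor of lipid metabolism, was lower (2.31, 6.6, -1.20, and -1.69 in the lower tubule pair), and nub was higher (2.52, 0.319, 1.41), with 11.9 in lower ureter PCs of PCts > Pvr act and 4.58 in those of PCts > w1118.

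**Figure D4:**
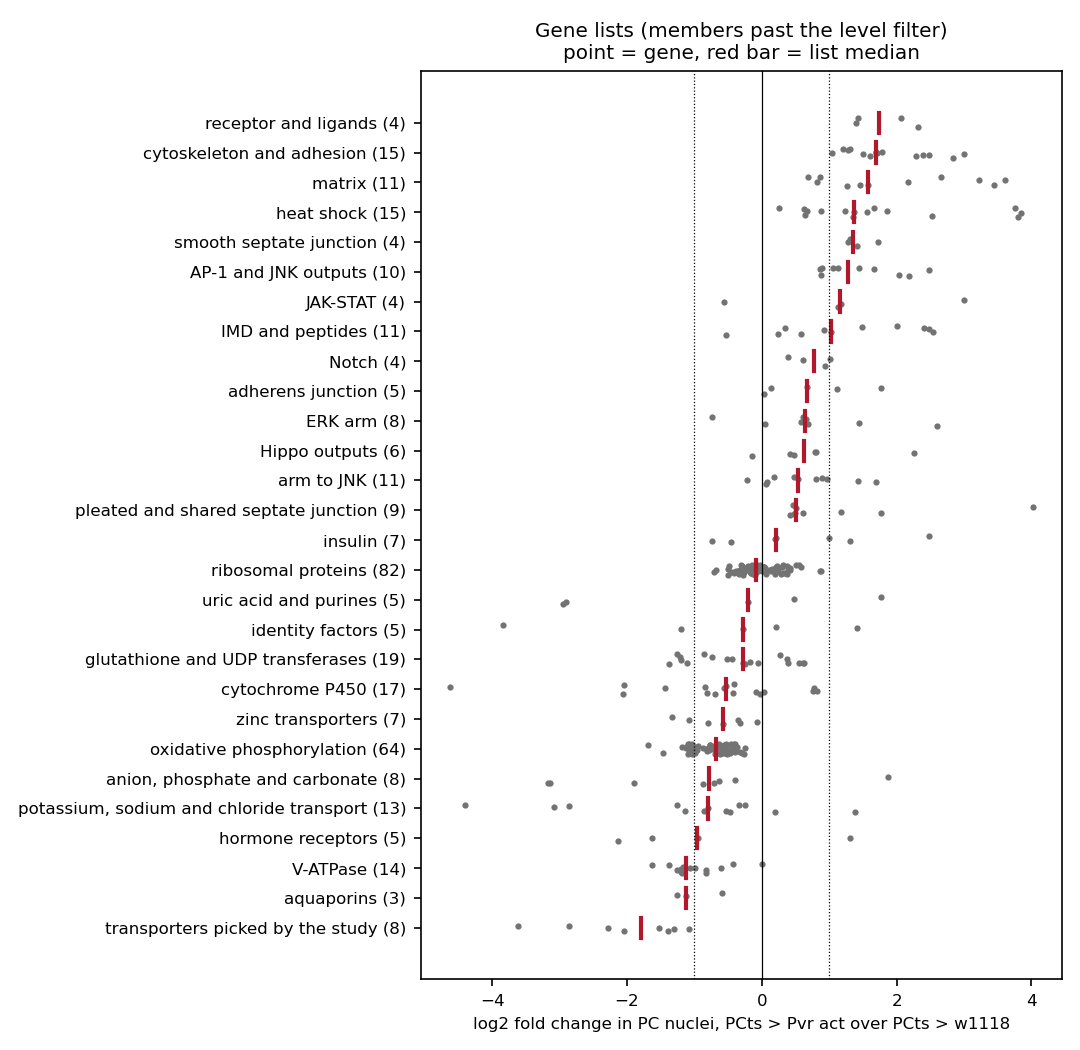
Log2 fold changes in PC nuclei, PCts > Pvr act over PCts > w1118, for the gene lists with at least 3 members past the level filter; each point is a gene, the red bar is the list median, dotted lines mark a log2 fold change of 1 in either direction, and the number of genes is in brackets. Cytoskeleton and adhesion genes lay entirely to the right (15 of 15 past the fold), oxidative phosphorylation genes entirely to the left of 0, and ribosomal protein genes around 0.

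The same contrast was made in 3 cell types that both libraries held. Lower ureter PCs (86 nuclei and 205809 UMIs in PCts > Pvr act, 39 nuclei and 65897 UMIs in PCts > w1118) gave 303 of 3525 genes (8.6%) higher and 413 (11.7%) lower. Against lower ureter PCs of EGT > w1118, 538 genes were higher. By the same naming rule the 5 highest were rgn, CG46339, fax, CG13506 and InR, and the 5 lowest Alp2, Mur18B, CG13309, Alp4 and CG14292. rgn was at 51.1 in lower ureter PCs of PCts > Pvr act and 2.75 in those of PCts > w1118 (3.80), InR at 80.4 and 10.5 (2.82), and Alp2 at 0.479 and 59.8 (-5.36). InR differed more there than in the lower tubule pair (0.32), a difference that was not tested. In these cells, as in all PC nuclei, Pvr was higher (15.3 and 1.96).

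Adult tracheal cells and visceral muscle lie outside the tubule epithelium and are not targets of the driver by its description, yet they differed as well. In tracheal cells (186 nuclei in PCts > Pvr act, 61 in PCts > w1118), 496 of 3639 genes (13.6%) were higher and 519 (14.3%) lower. In visceral muscle (26 and 21 nuclei, with only 11595 UMIs in PCts > w1118), 900 of 3600 genes (25%) were higher and 853 (23.7%) lower, at a depth where 1 UMI of a shallow nucleus can lift a gene over the filter. The tracheal list summed to 9.02 in tracheal cells of PCts > Pvr act and 13.9 in those of PCts > w1118, beside 9.62 and 1.04 in PC nuclei and 27.1 in lower segment PCs 2 (Pvr-act). Nearly all of the sum in PC nuclei of PCts > Pvr act was sty, which the list holds too, at 9.27, so in that library the summed list did not set tracheal cells apart. The FGF receptor gene btl was at 0.377 in tracheal cells of PCts > Pvr act and 0.901 in those of PCts > w1118, and at 0.0244 and 0.0274 in PC nuclei. trh, a tracheal identity factor, was at 0.746 and 1.72 in tracheal cells and at 0.0223 and 0.00225 in PC nuclei, so these defining genes were higher in tracheal cells of both libraries. The muscle list summed to 464 in visceral muscle of PCts > Pvr act and 112 in that of PCts > w1118, beside 8.19 and 8.41 in PC nuclei, with the muscle myosin gene Mhc at 86.8 and 13.4 in visceral muscle. Of the genes higher in PC nuclei, 224 of 347 were higher past the fold in tracheal cells, 213 in visceral muscle and 173 in lower ureter PCs. Of the genes lower in PC nuclei, the numbers were 185, 192 and 143 of 365. In the opposite direction past the fold, none of the 347 higher genes ran in tracheal cells or lower ureter PCs and 4 in visceral muscle, and of the 365 lower genes 20 ran so in tracheal cells, 39 in visceral muscle and 8 in lower ureter PCs.

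Several of the leading genes were at levels in tracheal cells of PCts > w1118 as high as in its PC nuclei or higher. Alp2 was at 0.239 in tracheal cells of PCts > Pvr act and 117 in those of PCts > w1118, where PC nuclei had 67.9. Mur18B was at 0.922 and 172 in tracheal cells and 59.8 in PC nuclei of PCts > w1118. fra was at 34 in tracheal cells of PCts > Pvr act and 0.0368 in those of PCts > w1118, and rgn at 56.2 and 2.48. In visceral muscle, unc-13 was at 30 in PCts > Pvr act and 0 in PCts > w1118, mtgo at 30.8 and 0, and CG14292 at 0 and 134. RNA free in the suspension can be caught with nuclei of every type, and its part in the levels of these genes was not tested. CG3168 was at 51.7 in tracheal cells of PCts > w1118 and between 13.5 and 283 in its PC types, and Atpalpha at 21.1 and between 14 and 154. Nrg was at 18.1 in tracheal cells of PCts > Pvr act and between 4.67 and 39.9 in its PC types. For all 3 genes the tracheal level lay within the range of the PC types of the same library.

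**Figure D5:**
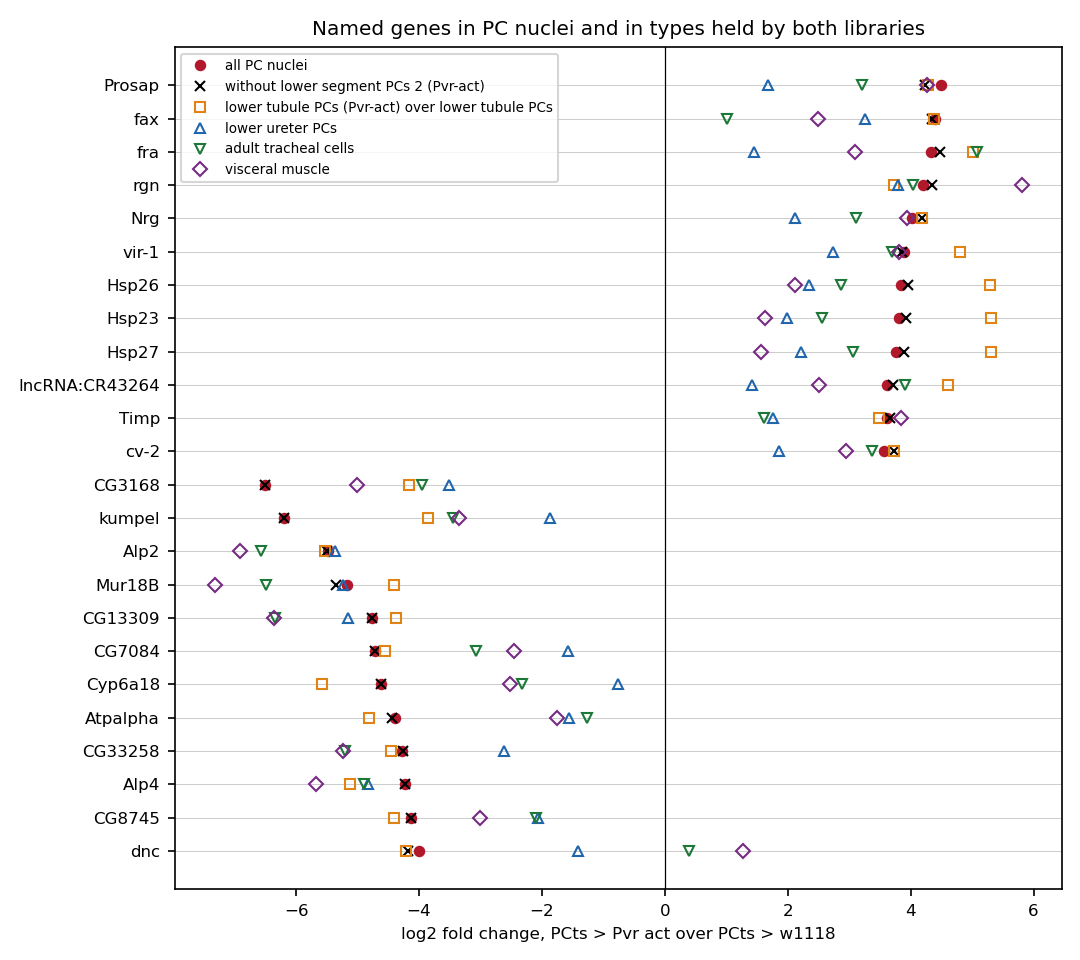
Log2 fold changes of the 24 named genes, PCts > Pvr act over PCts > w1118 (horizontal axis), in all PC nuclei, without lower segment PCs 2 (Pvr-act), in the lower tubule pair, in lower ureter PCs, in adult tracheal cells and in visceral muscle. All 12 higher genes lay right of 0 in every comparison, several of them with 0 UMIs in visceral muscle of PCts > w1118, and 11 of the 12 lower genes lay left of 0, with dnc above 0 in tracheal cells and visceral muscle.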

How the data were processed

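Nuclei of 90 pairs of MTs per genotype were sequenced with a droplet 3' protocol, and the submitters' processing notes name Cell Ranger 7.0.0, Seurat and the build BDGP6. The deposited matrix holds natural log values, made by the authors as ln(1 + UMIs per 10,000 UMIs of the nucleus), and a second table names the type of every nucleus. Undoing the log gave UMI counts, whole within 1e-06 for all 21371 nuclei and 16495 genes. Doublets and free RNA were not treated further here. Levels were averaged over nuclei, and folds used a pseudocount of 1, a level filter of 0.5 and a log2 fold change of 1. Sums have exact Poisson, shares exact Clopper-Pearson and pooled ratios conditional binomial 95% intervals. The study's methods compare cells with a rank sum test, and it was not run because cells are not replicates.

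Named genes are the 12 highest and 12 lowest log2 fold changes with a level of at least 2 in either library and the same sign against EGT > w1118, the 5 highest and 5 lowest in lower ureter PCs, the 3 highest and 3 lowest in tracheal cells and in visceral muscle, the targets Pvr, CG31272, gal4 and EGFP, and members of the gene lists. Members and lists were chosen with earlier results of these data known. Other settings were run 14 ways, on pseudocount, filter, pooling, centring, choice of types, control library and depth, and 2 more were chosen after seeing the data. Promoter motifs are not analysed here. Python 3.11.15, numpy 2.4.6, scipy 1.17.1 and pandas 2.3.3 were used, and the fold calculation was tested on simulated data.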

Additional observations from a re-analysis of the deposited data

Results flagged for a closer look

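Of the named genes and list members that differed past the fold in PC nuclei, 8 values ran past the fold in the opposite direction in another cell type. Each compares 1 library with 1 library, and the difference between cell types was not tested. CG7720, a transporter gene of the list picked by the study, was lower in PC nuclei (log2 fold change -2.27) and higher in lower ureter PCs (1.34), at 4.06 in PCts > Pvr act and 0.998 in PCts > w1118, and in tracheal cells (1.15), at 6.60 and 2.42. The potassium channel gene Irk1 (-2.86 in PC nuclei) was higher in tracheal cells by 1.02, with 122 UMIs in PCts > Pvr act and 5 in PCts > w1118. The carbonic anhydrase gene CAH1 (-3.14) was higher there by 1.09, at 12.7 in PCts > Pvr act and 5.41 in PCts > w1118. In visceral muscle, hth (-3.83 in PC nuclei) differed by 1.47 with 86 UMIs in PCts > Pvr act and 8 in PCts > w1118, dnc (-3.99) by 1.27 with 56 and 6 UMIs, Dh31-R (-2.13) by 1.96 with 35 and 2 UMIs, and Dh44-R2 (-1.63) by 1.82 with 15 and 0 UMIs, a value set by the pseudocount. The counts in PCts > w1118 behind the muscle values are too few to give a firm size.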

How the results depend on the processing

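The count of genes past the fold depended most on the pseudocount: 702 genes were higher and 757 lower with a pseudocount of 0.1, and 758 higher and 803 lower with none, against 347 and 365. Under the other alternatives 292 to 404 were higher and 294 to 417 lower. The share of PC nuclei among nuclei with at least 1000 UMIs was 70.2% in PCts > Pvr act and 78.6% in PCts > w1118, and among cell types of the MT it was 64.8% in PCts > Pvr act. In lower ureter PCs 538 genes were higher against EGT > w1118. In the lower tubule pair the log2 fold changes of hth (0.81), CG4928 (0.31) and Irk1 (0.31) changed sign but stayed short of the fold. The cause was not tested. Of 384 recomputed values of the 24 named genes, 383 stayed past the fold, the exception being Hsp27 against EGT > w1118 (0.91). These 24 were picked for the largest folds, so this says little of other genes. Of 640 recomputed values of called genes, the 24 included, 627 stayed past the fold and 13 did not. None of 237 recomputed list medians that had passed the fold changed sign. Of all 602 recomputed list medians, 18 in 6 lists changed sign, each of a list whose median was at most 0.27 in size, among them ribosomal proteins (0.15) and uric acid and purines (0.16) in the lower tubule pair. With 1 library per genotype no alternative measures the spread between animals or libraries. Depth limits visceral muscle most, with 11595 UMIs in PCts > w1118. No paired analysis was possible because each genotype was 1 library and no test was made.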
